A study of Mus musculus with 15 samples.

Results

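ATP-binding cassette (ABC) genes encode a superfamily of proteins built around a conserved ATP-binding domain. The members studied here are all genes of the deposited table whose symbol is Abc, a subfamily letter from a to g and a number, with a trailing a or b allowed and Abcg3 left out. The rule finds 49 of 44827 genes and was applied to sorted blood stem and progenitor cells of 5 groups of mice. Its symbol pattern uses no measured value. Abcg3 fits that pattern, and it was left out with earlier results of these data known. The counts of members below therefore do not cover Abcg3. Of the 49 members, 33 reached 1 CPM (a gene's count scaled to its library size) in at least 3 of the 15 libraries, among 13927 genes that did so. Only those 33 were tested.

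Most members of subfamilies A to D and G sit in a membrane and spend ATP to move a substrate across it: cholesterol and phospholipids, drugs and conjugates, haem-related compounds, or fatty acids bound for the peroxisome. Members of subfamilies E and F have no membrane-spanning part and act on ribosomes. In blood-forming tissue the family is best known for Abcg2 and the Abcb1 genes, which pump dyes and drugs out of stem cells, and for Abca1 and Abcg1, which export cholesterol from stem and progenitor cells.

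The cells were bone marrow LSK cells, a lineage-negative fraction sorted for Sca1 and cKit, from C57BL/6 mice. There were 3 libraries each of wild type (WT) mice, of mice lacking Tet2 (Tet2-/-) and of mice with activated Nras, genotype Nras(G12D). The genotype Tet2-/- Nras(G12D) was sampled both without leukemia (called the double mutant) and with it (the leukemic double mutant), again as 3 libraries each. In lists of values the last 3 groups are written Nras, double mutant and leukemic, and values follow library numbers 1, 2 and 3. Per the design text the mutations are conditional and restricted to blood-forming tissue, and its methylome animals were 6 months old; no treatment is given, and the driver of the recombination is not given in the sources used here. Only the leukemic libraries carry the letters BMT in their descriptions, and whatever these mark cannot be told apart from leukemia. The labels do not say that the 3 libraries of a group are separate animals, so p-values measure the spread between libraries.

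Library totals ran from 22733189 to 43562909 counts, so that 1 CPM stands for over 20 reads in every library. The 7 LSK markers (among them Kit, Ly6a, Cd34, Flt3, Hlf and Mecom) summed to 3603 to 4128 CPM in WT and to 2778, 677 and 1223 CPM in leukemic libraries 1, 2 and 3. The 8 erythroid markers (among them Klf1, Gata1, Epor, Slc4a1, Ermap, Hbb-bs and Hba-a1) summed to 91.1 to 119 CPM in WT, 30.3 to 59.1 in Tet2-/-, 98.4 to 232 in Nras(G12D) and 50.4 to 93.0 in double mutant libraries. In leukemic libraries 1, 2 and 3 the erythroid sum was 255, 3109 and 1515 CPM. Leukemic libraries 2 and 3 thus stood apart from the other 13. Sizes of change from WT without both are given below only for Abcg4, Abcb4, Abcb10, Abcg1 and Abca1. Counts of partners and of markers are given only with both. Nras(G12D) library 2 held 3808 CPM of 8 mature neutrophil markers, against 100.3 to 412 in the other 14 libraries, and it was the highest of its group for 26 of the 33 tested members.

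RefSeq promoter windows (GRCm38.p6, 250 bases before to 50 after a start) matched 37 of the 49 members with 44 windows, and 24 of the 33 tested ones. Of the 9 members called below between leukemic double mutant and WT, 5 had a window. The bases before the start are printed for these 5, to show the promoters of the cholesterol exporter that fell and of 4 members that rose. Each is 5′ to 3′ on the gene's strand, and capitals mark the E-box letters CACGTG, which read the same on both strands.
Abca1, chr4:53159896-53160145, minus strand: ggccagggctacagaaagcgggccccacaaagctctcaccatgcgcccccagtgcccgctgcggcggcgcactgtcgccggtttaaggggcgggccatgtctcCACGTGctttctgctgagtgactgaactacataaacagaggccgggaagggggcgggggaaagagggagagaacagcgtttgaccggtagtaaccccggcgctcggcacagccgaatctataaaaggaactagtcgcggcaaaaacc
Abcb4, chr5:8893471-8893720, plus strand: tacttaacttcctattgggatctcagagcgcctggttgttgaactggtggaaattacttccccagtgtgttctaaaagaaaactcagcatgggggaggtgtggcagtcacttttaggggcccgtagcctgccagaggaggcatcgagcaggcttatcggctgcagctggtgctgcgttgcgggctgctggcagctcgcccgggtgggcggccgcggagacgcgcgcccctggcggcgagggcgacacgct
Abcb10, chr8:123983123-123983372, minus strand: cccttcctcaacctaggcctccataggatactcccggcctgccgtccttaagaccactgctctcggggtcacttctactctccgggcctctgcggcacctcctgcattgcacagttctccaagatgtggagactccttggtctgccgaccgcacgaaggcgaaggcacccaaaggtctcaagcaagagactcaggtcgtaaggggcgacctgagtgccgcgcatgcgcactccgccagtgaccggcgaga
Abcc4, chr14:118706220-118706469, minus strand: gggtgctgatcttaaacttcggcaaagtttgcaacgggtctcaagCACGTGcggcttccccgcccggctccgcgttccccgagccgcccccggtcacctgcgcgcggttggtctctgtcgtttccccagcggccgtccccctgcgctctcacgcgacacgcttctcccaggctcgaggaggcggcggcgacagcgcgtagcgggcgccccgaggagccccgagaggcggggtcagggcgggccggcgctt
Abcf1, chr17:35969751-35970000, minus strand: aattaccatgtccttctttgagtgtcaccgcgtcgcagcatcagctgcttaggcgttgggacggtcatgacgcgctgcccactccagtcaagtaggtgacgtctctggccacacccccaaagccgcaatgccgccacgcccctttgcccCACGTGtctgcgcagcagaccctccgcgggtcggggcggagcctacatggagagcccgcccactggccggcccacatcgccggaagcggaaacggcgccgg

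The E-box began at base 104 of the Abca1 stretch, base 46 of Abcc4 and base 150 of Abcf1, counted from 1 at the 5′ end. The Abcb4 and Abcb10 stretches did not hold these letters. A second Abcc4 window (chr14:118676882-118677181), not printed, did not hold them either and had the GATA letters TGATAA at base 20. Over the 300-base windows, 6 of 44 member windows (13.6%) held CACGTG, against 7.15% of all 32851 windows in the table, and the other 3 members with it were Abca15, Abca8a and Abca8b. The strict LXR-type letters, AGGTCA repeated after 4 bases, were in 0 of the 44 member windows. They were in 0.0152% of all windows, so a 0 is likely for any set of this size. Looser forms of this element, which sterol-sensing nuclear receptors also read, were not searched. The 0 therefore does not show that Abca1 or any other member lacks such an element. The AP-1 letters TGANTCA were in 0 member windows and in 7.81% of all. The GATA letters AGATAA were in 6 member windows (13.6%, against 11.2% of all) and TGATAA in 2 (4.55%, against 9.05%). Member windows held a median of 16.5 CG dinucleotides, against 7 over all windows. Each motif was searched on both strands, and these are matches of letters in a short window.

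Levels within the family can be ranked only per length. In WT, mean CPM per kilobase of exon was highest for Abce1, the ribosome recycling factor, at 79.6, and for Abcf2 at 79.4, followed by Abcf1 at 45.5. Among the membrane members, Abca7 stood at 23.6 and the mitochondrial Abcb8 at 21.8. Abcg2, the dye pump of the side population, stood at 13.5, and the drug pumps Abcb1b and Abcb1a, of another subfamily, at 7.06 and 0.529. Abcb10, Abcb4 and Abcg4 stood at 5.14, 0.824 and 0.400 in WT, and their leukemic double mutant means were 62.2, 17.3 and 16.1. Among all members only Abce1, Abcf2 and Abcf1, at 121, 139 and 70.2, were above Abcb10 there.

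Of the 16 members that were not tested, 13 had at most 10 counts in every library. They include Abcg5 and Abcg8, the sterol exporter pair of liver and gut, Abcb11, the bile salt pump, and the sulphonylurea receptors Abcc8 and Abcc9. No member was at 0 counts in all 15 libraries. The remaining 3 were Abca6, Abca17 and Abcb6, each above 1 CPM in at least 1 library. Abcb6, a porphyrin-linked transporter, read 0.160 to 0.574 CPM in the 12 other libraries and 0.927, 4.68 and 1.93 in leukemic libraries 1, 2 and 3. Its leukemic values were above every other library, and it was not tested in the main fit because 2 libraries, not 3, reached 1 CPM.

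In the test over all 5 groups (limma F test, Benjamini-Hochberg adjusted p below 0.05, called from here on), 14 of 33 members were called. That is 42.4%, close to the 44% of all 13927 genes. Over this test and the comparisons of pairs of groups together, 17 members were called at least once and 16 never. The 16 include the drug pumps Abcg2 and Abcb1a. Gene positions below are those of GENCODE M21 on GRCm38.

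**Figure D1:**
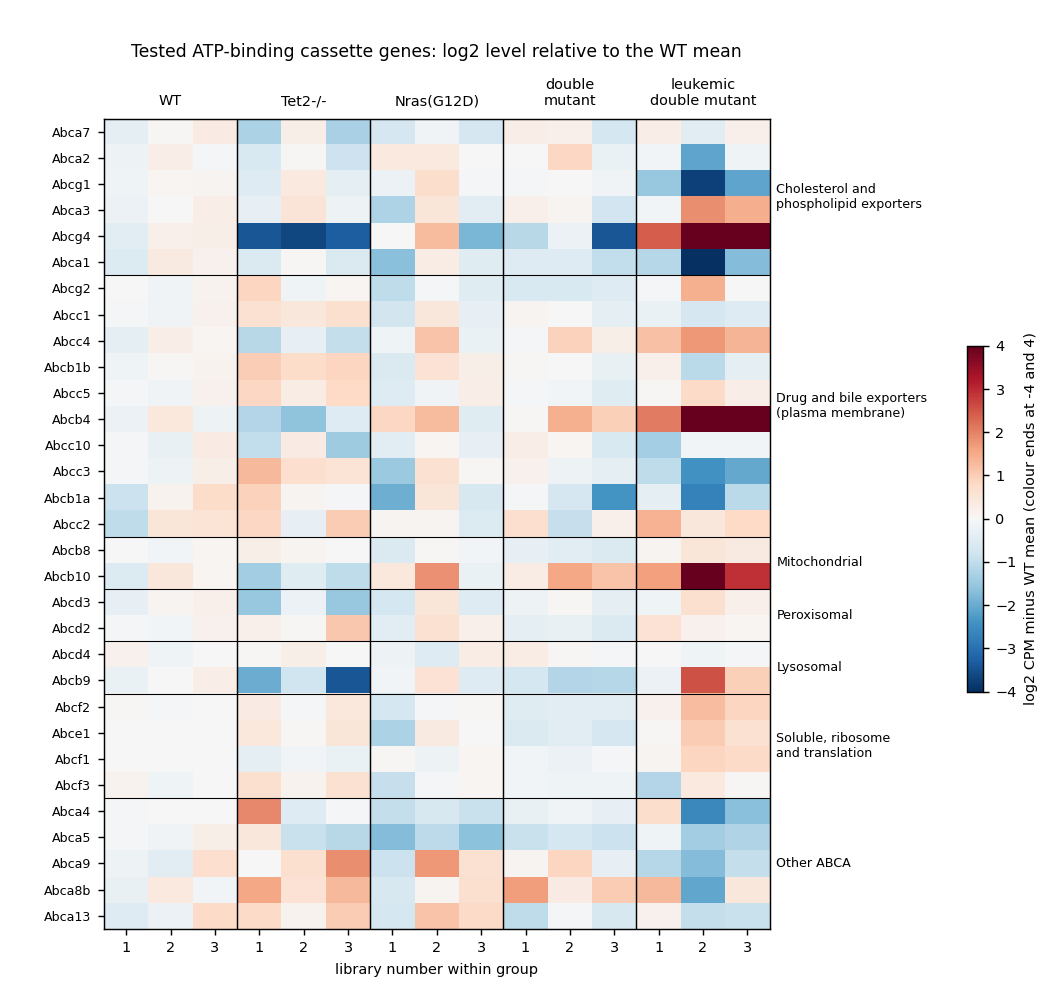
Each row is a tested member, grouped by role (31 of the 33 are drawn), and each column a library; colour gives the log2 CPM minus the WT mean of that gene, and colours end at -4 and 4. The leukemic double mutant columns hold the deepest reds, for Abcg4, Abcb4 and Abcb10. Abcg1 and Abca1 are blue there, most deeply in library 2. Leukemic library 1 is paler than leukemic libraries 2 and 3 in those 5 rows. Deep blue is not confined to leukemia, and Abcg4 shows it in all Tet2-/- columns.

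The comparison of leukemic double mutant with WT called 9 of 33 members (27.3%), against 24.7% of all tested genes, so that the family was called about as often as genes at large. Higher were 5 members (15.2%, background 10.8%) and lower 4 (12.1%, background 13.9%). The median log2 change was 0.02 over the members and -0.00014 over all genes.

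Cholesterol and phospholipid exporters came apart between the leukemic double mutant and WT: of 6 tested, Abcg1 and Abca1 fell, and Abcg4 rose. Abcg1 (chr17:31057675-31117988) passes cellular cholesterol to high-density lipoprotein. Abcg1 read 67.1, 79.3 and 80.9 CPM (WT libraries 1, 2 and 3), 53.4, 99.7 and 57.7 (Tet2-/-), 64.3, 122 and 71.9 (Nras), 73.5, 77.1 and 68.2 (double mutant) and 26.3, 5.70 and 17.4 (leukemic). All 3 leukemic values lay below the other 12 libraries, which ran from 53.4 to 122 CPM. The log2 change from WT was -2.45 ± 0.44 (SE, n = 3 per group; limma adjusted p = 0.00316), a 5.48-fold lower level, and from the double mutant -2.40 ± 0.44 (adjusted p = 0.00389).

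Abca1 (chr4:53030787-53159895) loads cholesterol and phospholipid onto lipid-poor apolipoprotein A-I. Abca1 read 31.8, 60.6 and 53.0 CPM (WT libraries 1, 2 and 3), 31.4, 48.2 and 31.5 (Tet2-/-), 14.6, 57.8 and 33.6 (Nras), 32.9, 32.8 and 23.4 (double mutant) and 20.97, 2.67 and 14.1 (leukemic). The leukemic values lay below all WT, Tet2-/- and double mutant libraries, and Nras(G12D) library 1, at 14.6, fell among them. Its log2 change from WT was -2.33 ± 0.63 (limma adjusted p = 0.0171). Against the double mutant it was -1.66 ± 0.63 and not called (adjusted p = 0.0667).

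Abcg4 (chr9:44273188-44288615) is the closest relative of Abcg1, with 73.7% identical bases over the aligned longest open reading frames, and is known for cholesterol export in brain and in megakaryocyte progenitors. Abcg4 read 1.49, 2.35 and 2.42 CPM (WT libraries 1, 2 and 3), 0.170, 0.151 and 0.191 (Tet2-/-), 2.03, 4.88 and 0.557 (Nras), 0.934, 1.75 and 0.176 (double mutant) and 11.1, 166 and 74.3 (leukemic). The leukemic values were the 3 highest of the 15, and the Tet2-/- values were lower than every WT value, at 4 to 6 reads each. The log2 change was 4.65 ± 0.97 from WT (limma adjusted p = 0.00615) and 6.23 ± 0.97 from the double mutant (adjusted p = 0.00208), while Tet2-/- minus WT was -3.45 ± 0.97 and not called (adjusted p = 0.11). As CPM, leukemic means were 83.9 ± 78.1 for Abcg4 and 16.5 ± 10.3 for Abcg1 (SD, n = 3), against 2.08 ± 0.52 and 75.8 ± 7.52 in WT.

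The other 3 tested exporters were not called in any test. Abca7, a relative of Abca1 with a part in phagocytosis, and Abca2, an endolysosomal lipid transporter, had the highest CPM of the group. Abca7 read 122, 159.7 and 195 CPM (WT libraries 1, 2 and 3), 64.6, 185 and 63.8 (Tet2-/-), 98.4, 142 and 98.0 (Nras), 187, 182 and 95.7 (double mutant) and 189.5, 116 and 179 (leukemic). Abca2 read 76.5, 106 and 86.9 CPM (WT libraries 1, 2 and 3), 58.5, 92.7 and 50.1 (Tet2-/-), 116, 118 and 87.6 (Nras), 87.4, 158 and 74.3 (double mutant) and 81.8, 20.5 and 78.4 (leukemic). Abca7 in Tet2-/- libraries 1 and 3 was below all other libraries while library 2 was among the highest, and Abca2 in leukemic library 2 stood below the rest. Abca3, which packs phospholipid into lamellar bodies of the lung, read 51.1, 202 and 152 CPM in the leukemic libraries and 23.9 to 79.3 in the other 12, with a log2 change from WT of 1.06 ± 0.50 (limma adjusted p = 0.128).

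Most sterol partners of these exporters, like most tested genes, did not pass the test between the leukemic double mutant and WT (background 24.7% called). Of 9 tested genes of sterol sensing and efflux 0 were called higher (background 10.8%) and 1 lower (background 13.9%). The 1 was Nr1h3, which encodes the sterol-sensing receptor LXR alpha, with -1.75 ± 0.49 (limma adjusted p = 0.0202). Nr1h3 was low throughout, at 2.05 to 2.82 CPM in WT and 0.329 to 0.966 in leukemic libraries. Nr1h2, which encodes LXR beta, read 70.1 to 135 CPM in WT and 114 to 123 in leukemic libraries and was not called. Of the 3 in this list with the smallest F test p, Apoe stood at 0.34 ± 0.74, Scarb1 at 1.07 ± 0.44 and Lpcat3 at 0.67 ± 0.26, none called. Of 18 genes of cholesterol synthesis and uptake 1 was called higher, Insig1 at 1.77 ± 0.55, and 1 lower, Dhcr7 at -0.87 ± 0.27 (same backgrounds). Scap, at 0.65 ± 0.47, was not called. The medians were 0.34 for sensing and efflux, 0.11 for synthesis and uptake, and -0.00014 over all tested genes.

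**Figure D2:**
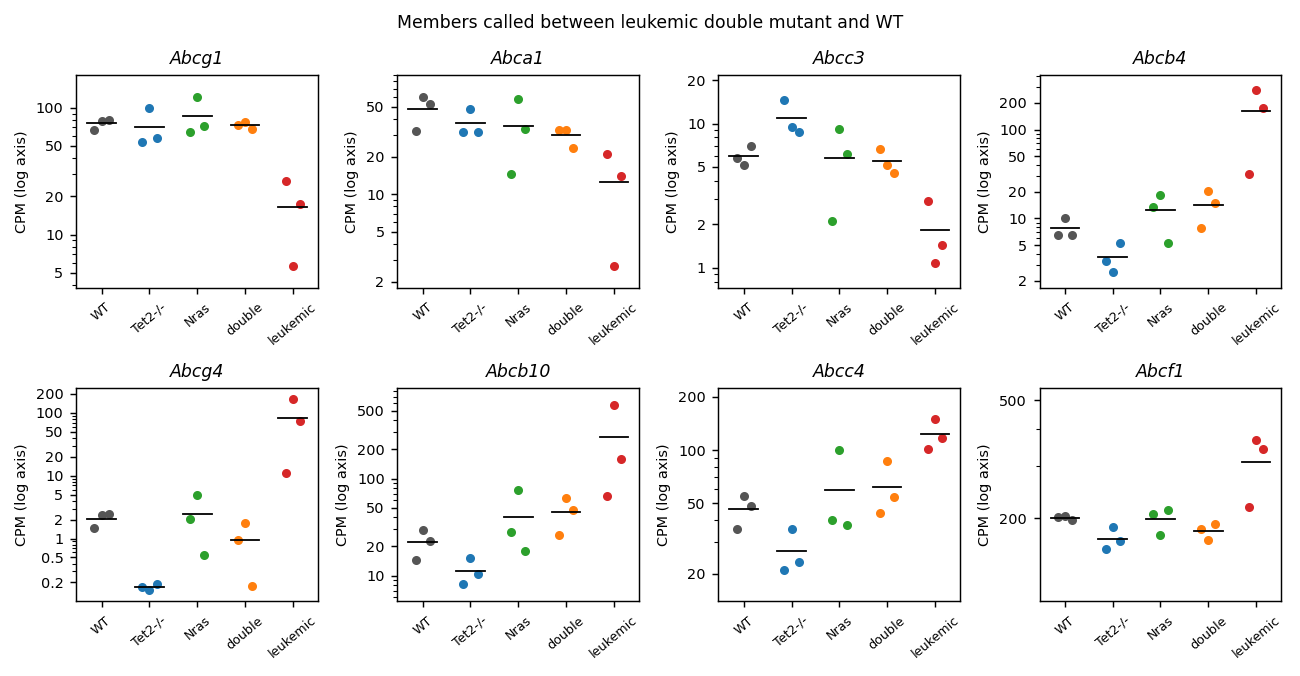
CPM per library on log axes for 8 of the 9 members called between leukemic double mutant and WT; each point is a library, the bar is the mean of 3, and groups are WT, Tet2-/-, Nras(G12D), double mutant and leukemic double mutant. Abcg1, Abca1 and Abcc3 are lowest and Abcb4, Abcg4, Abcb10, Abcc4 and Abcf1 highest by mean in the leukemic group, where library 2 (middle point) is the most extreme in all 8 panels.

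Among the drug and bile exporters of the plasma membrane Abcb4 (chr5:8893717-8959231), the phosphatidylcholine floppase of bile, rose most. Abcb4 read 6.44, 10.2 and 6.55 CPM (WT libraries 1, 2 and 3), 3.36, 2.48 and 5.30 (Tet2-/-), 13.3, 18.2 and 5.36 (Nras), 7.75, 20.3 and 14.8 (double mutant) and 32.0, 278 and 176 (leukemic). Every leukemic value lay above every other library. The log2 change was 3.94 ± 0.67 from WT (limma adjusted p = 0.00266), a 15.3-fold higher level, and 3.13 ± 0.67 from the double mutant (adjusted p = 0.007). Abcb4 neighbours Abcb1b and shares 74.5% of aligned coding bases with it; Abcb1b stood at -0.42 ± 0.32 from WT, not called (adjusted p = 0.354).

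Abcc4 (chr14:118482692-118706219) exports cyclic nucleotides, prostaglandins and conjugates. Abcc4 read 35.7, 54.8 and 48.1 CPM (WT libraries 1, 2 and 3), 20.9, 35.9 and 23.3 (Tet2-/-), 40.5, 99.6 and 37.5 (Nras), 43.9, 87.2 and 53.9 (double mutant) and 102, 150.2 and 117 (leukemic). All 3 leukemic values were above the other 12 libraries, whose highest were Nras(G12D) library 2 at 99.6 and double mutant library 2 at 87.2. It rose by 1.42 ± 0.37 from WT (limma adjusted p = 0.0158); against the double mutant the change was 1.04 ± 0.37 and not called (adjusted p = 0.0564).

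Abcc3 (chr11:94343295-94392997) exports bile acids and glucuronides. Abcc3 read 5.79, 5.16 and 6.96 CPM (WT libraries 1, 2 and 3), 14.6, 9.48 and 8.74 (Tet2-/-), 2.10, 9.12 and 6.10 (Nras), 6.67, 5.13 and 4.56 (double mutant) and 2.92, 1.09 and 1.43 (leukemic). Leukemic values overlapped only Nras(G12D) library 1, at 2.10, and Tet2-/- values were above every WT value. Abcc3 fell by 1.83 ± 0.49 from WT (limma adjusted p = 0.0162) and by 1.69 ± 0.49 from the double mutant (adjusted p = 0.0236) on the log2 scale.

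Abcg2 and the 2 Abcb1 genes, the classical stem cell pumps, were not called between leukemic double mutant and WT. Abcg2 read 110.1, 99.1 and 119.7 CPM (WT libraries 1, 2 and 3), 197, 96.3 and 115 (Tet2-/-), 53.9, 103 and 77.5 (Nras), 71.1, 70.9 and 75.7 (double mutant) and 105, 293 and 109 (leukemic). Abcg2 was highest in leukemic library 2, followed by Tet2-/- library 1, while leukemic libraries 1 and 3 lay inside the WT range. Its log2 change from WT was 0.45 ± 0.37 (limma adjusted p = 0.385). Abcb1a, at 0.395 to 5.05 CPM, stood at -1.39 ± 0.75 (adjusted p = 0.185), and with 88.1% of aligned coding bases shared with Abcb1b its reads may be split between the copies. Abcc10 and Abcc2, further conjugate exporters at 4.31 to 14.5 and 0.305 to 1.72 CPM, were not called in any test.

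Among the mitochondrial members, Abcb10 and Abcb8 rose in the leukemic double mutant against the double mutant. Abcb10 (chr8:123952459-123983122) lies in the inner mitochondrial membrane and is known for its part in haem synthesis of red cell precursors. Abcb10 read 14.6, 29.2 and 22.5 CPM (WT libraries 1, 2 and 3), 8.16, 15.1 and 10.4 (Tet2-/-), 28.3, 75.6 and 17.7 (Nras), 26.2, 62.6 and 47.1 (double mutant) and 66.0, 577 and 161 (leukemic). Leukemic values exceeded all WT, Tet2-/- and double mutant libraries, and only Nras(G12D) library 2, at 75.6, was above the lowest of them. The log2 change was 3.11 ± 0.67 from WT (limma adjusted p = 0.00694) and 2.10 ± 0.67 from the double mutant (adjusted p = 0.0351). The gene overlaps the opposite-strand gene models Gm20388 and Gm45890, and whether strand was used in counting is not given in the sources used here.

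Abcb8 (chr5:24393663-24410054), part of a mitochondrial potassium channel complex and of iron export, was called with a smaller change. Abcb8 read 105, 95.7 and 109 CPM (WT libraries 1, 2 and 3), 122, 111 and 103 (Tet2-/-), 68.8, 107 and 96.3 (Nras), 81.6, 77.7 and 68.3 (double mutant) and 112, 144 and 131 (leukemic). The double mutant values were the lowest but for Nras(G12D) library 1, and the leukemic values were above all WT values. It rose by 0.76 ± 0.20 against the double mutant (limma adjusted p = 0.0162) and was not called against WT, at 0.32 ± 0.20 (adjusted p = 0.253).

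The haem and iron-sulphur partners moved in the same direction as Abcb10. All 16 had a log2 change above 0 in leukemic double mutant minus WT, with a median of 1.46. Of these, 10 were called higher (background 10.8%) and 0 lower (background 13.9%). In leukemic library 1 the rise was not uniform. There Uros read 14.2 CPM, below its WT range of 27.2 to 31.5, and Nfs1 read 86.2, above its 71.9 to 79.2. Glrx5, which hands on iron-sulphur clusters, rose by 3.75 ± 0.69, and Iscu, the cluster scaffold, by 2.50 ± 0.67 (limma adjusted p = 0.00346 and 0.0165). Both were already high in double mutant libraries 2 and 3. Glrx5 read 68.8 and 80.9 CPM there and Iscu 58.4 and 65.2, against at most 15.1 and 19.4 in WT. Against the double mutant 7 of the 16 partners were called higher (background 9.04%) and 0 lower (background 15.2%).

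Erythroid and LSK markers moved with these results. Of 8 erythroid markers 6 were called higher in leukemic double mutant minus WT (background 10.8%) and 8 in leukemic minus non-leukemic double mutant (background 9.04%). Of 7 LSK markers 5 and 3 were called lower (backgrounds 13.9% and 15.2%). None of the erythroid markers was at 0 in a leukemic library: Klf1 read 31.1, 620 and 419 CPM and Hbb-bs 21.1, 334 and 31.1 in libraries 1, 2 and 3, against 4.88 to 17.7 and 7.21 to 17.9 in WT. The order of the libraries, 2 over 3 over 1, is that of Abcb10, Abcb4 and Abcg4. Their part in the result was not tested. In bulk RNA, fewer cells of a type and less RNA per cell cannot be told apart.

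**Figure D3:**
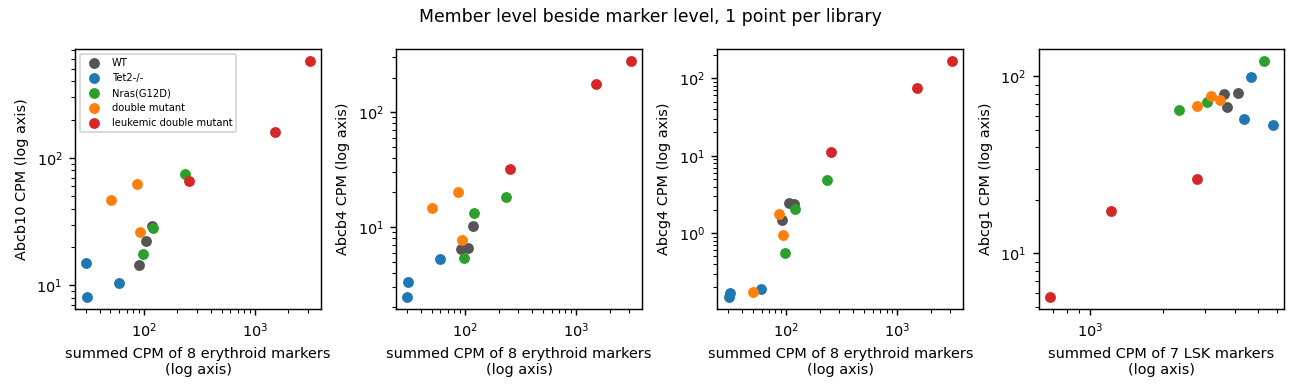
Level of Abcb10, Abcb4 and Abcg4 against the summed CPM of 8 erythroid markers, and of Abcg1 against that of 7 LSK markers, 1 point per library, both axes log, colours by group. Leukemic libraries 2 and 3 lie at the upper right in the first 3 panels and at the lower left in the last, and leukemic library 1 lies nearer to the other groups.

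Among the peroxisomal members Abcd3, a transporter of branched-chain and bile acid precursors, was not called in any of the main tests. Abcd3 read 58.6, 78.5 and 83.9 CPM (WT libraries 1, 2 and 3), 25.2, 62.5 and 25.7 (Tet2-/-), 44.6, 102 and 51.0 (Nras), 63.6, 75.0 and 56.1 (double mutant) and 64.4, 113 and 84.0 (leukemic). Tet2-/- libraries 1 and 3 were the lowest of Abcd3, and library 2 lay within the WT range. Of 12 peroxisome partners 1 was called higher in the leukemic double mutant than in WT (background 10.8%) and 1 lower (background 13.9%). The higher 1 was the assembly factor Pex16 at 0.69 ± 0.22. Acaa1a and Pex14, at 1.23 ± 0.51 and 0.69 ± 0.40, were not called.

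Of the 4 soluble members of subfamilies E and F, 3 were called higher in the leukemic double mutant than in the double mutant (background 9.04%). Against WT 1 was called higher (background 10.8%). All 4 had a log2 change below 0 in double mutant minus WT, from -0.56 to -0.14, with 0 called (background 0.682%). Abce1 (chr8:79683462-79711740) splits ribosomes after termination. Abce1 read 479, 469 and 485 CPM (WT libraries 1, 2 and 3), 636, 493 and 669 (Tet2-/-), 200.04, 617 and 483 (Nras), 323, 355 and 297 (double mutant) and 492, 969.7 and 725 (leukemic). Leukemic values were above all WT and double mutant values and overlapped Tet2-/-. Abce1 rose by 1.11 ± 0.34 from the double mutant (limma adjusted p = 0.0295) and stood at 0.55 ± 0.34 from WT, not called (adjusted p = 0.238).

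Abcf2 (chr5:24565345-24577467) and Abcf1 (chr17:35956819-35969761) have roles in translation, Abcf1 through initiation factor eIF2. Abcf2 read 212, 192 and 207 CPM (WT libraries 1, 2 and 3), 255, 191 and 273 (Tet2-/-), 125, 197 and 209 (Nras), 145, 152 and 149 (double mutant) and 227, 477 and 366 (leukemic). Abcf1 read 202, 203 and 197 CPM (WT libraries 1, 2 and 3), 157, 187 and 167 (Tet2-/-), 207, 176 and 214 (Nras), 184, 169 and 192 (double mutant) and 219, 367 and 343 (leukemic). For both, every leukemic value exceeded every WT and double mutant value, by little in library 1. Abcf2 rose by 1.20 ± 0.26 against the double mutant (limma adjusted p = 0.00797) and was at 0.74 ± 0.26 against WT, not called (adjusted p = 0.0531). Abcf1 rose by 0.59 ± 0.20 from WT (adjusted p = 0.0434) and by 0.73 ± 0.20 from the double mutant (adjusted p = 0.0185). The call of Abcf1 against WT was lost under 6 of 10 other settings: 0.33 under scaling by total counts (limma adjusted p = 0.242), 0.26 under quantile normalization (0.395), 0.54 under median centring (0.101) and an unmoved 0.59 with no filter (0.107), with the replicate block (0.0512) and with the compared groups alone (0.0948). Against the double mutant it was lost under scaling by total counts (0.50, adjusted p = 0.0781), quantile normalization (0.39, 0.207) and the compared groups alone (0.0785). The fourth, Abcf3, was called in no test, at 44.1 to 156 CPM. Of 7 partners in ribosome rescue and translational control 3 were called higher than in WT (background 10.8%): Gspt1 at 2.14 ± 0.46 and Etf1 at 1.33 ± 0.30, the release factors, and Eif2s1 at 0.98 ± 0.27.

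Among the lysosomal members Abcb9 (chr5:124061530-124095798), a peptide transporter, was called against the double mutant. Abcb9 read 3.54, 4.19 and 5.09 CPM (WT libraries 1, 2 and 3), 1.06, 2.45 and 0.383 (Tet2-/-), 3.95, 6.28 and 2.94 (Nras), 2.59, 1.87 and 1.90 (double mutant) and 3.60, 24.8 and 8.23 (leukemic). Leukemic values were above the double mutant range and, in library 1, inside the WT range. It rose by 2.10 ± 0.66 from the double mutant (limma adjusted p = 0.0348), and Tet2-/- values were below all WT values. Abcd4, which takes part in vitamin B12 release from the lysosome, was not called in any test. Abcd4 read 22.3, 17.6 and 20.0 CPM (WT libraries 1, 2 and 3), 20.7, 23.4 and 19.7 (Tet2-/-), 17.3, 13.85 and 24.6 (Nras), 24.3, 20.4 and 19.1 (double mutant) and 20.1, 17.7 and 19.2 (leukemic). For Abcd4 every pair of groups overlapped. Of 6 tested genes of peptide loading, relatives of Abcb9 and their partners, 0 were called higher than in WT (background 10.8%) and 1 lower (background 13.9%). The 1 was Tap2 at -0.76 ± 0.22, beside Tap1 at 0.48 ± 0.42 and B2m at 0.14 ± 0.17, not called. Cftr, a further superfamily member, was not tested.

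The remaining ABCA members were low and never called. Abca4, the retinoid flippase of photoreceptors, and Abca5, a lysosomal member, had the highest CPM of the 5 tested. Abca4 read 9.57, 9.94 and 9.99 CPM (WT libraries 1, 2 and 3), 37.1, 6.95 and 9.60 (Tet2-/-), 5.06, 6.35 and 5.30 (Nras), 7.99, 8.86 and 7.79 (double mutant) and 16.0, 1.65 and 3.09 (leukemic). Abca5 read 7.74, 7.47 and 9.59 CPM (WT libraries 1, 2 and 3), 11.2, 4.44 and 3.76 (Tet2-/-), 2.44, 4.004 and 2.63 (Nras), 4.46, 5.04 and 4.56 (double mutant) and 7.24, 3.096 and 3.52 (leukemic). For both genes all Nras(G12D) and all double mutant values were below all WT values. Abca13, Abca8b and Abca9 read 0.0988 to 6.51 CPM. All 5 had a log2 change below 0 in leukemic double mutant minus WT, from -1.28 to -0.11, with 0 called (background 24.7%). Of 5 tested regulators of drug and stress responses 0 were called in either direction there (background 24.7%). Among them were Keap1 at 1.16 ± 0.55, Hif1a at 0.60 ± 0.41 and Nfe2l2 at 0.38 ± 0.24.

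Between the 2 double mutant groups, 11 of 33 members (33.3%) were called, against 24.3% of all tested genes. Higher in leukemia were 8, Abcb10, Abcb4, Abcb8, Abcb9, Abce1, Abcf1, Abcf2 and Abcg4 (24.2%, background 9.04%), and lower 3, among them Abcc3 and Abcg1 (9.09%, background 15.2%). The median was 0.09 over the members and -0.10 over all genes. This comparison and that with WT share the leukemic libraries, and 7 members were called in both. Of the 9 calls against WT 5, among them those of Abcb10, Abcb4, Abcg1 and Abcg4, were kept in each of the 6 fits that left out 1 WT or leukemic library, and the count ran from 5 without leukemic library 2 (10.5% of all genes) to 14 without leukemic library 1 (37.7% of all genes). The other 4 calls were lost in 1 or more: Abca1 without WT 2, WT 3 or leukemic 2, Abcc3 without WT 1, WT 3, leukemic 2 or leukemic 3, Abcc4 without WT 1 or leukemic 2, and Abcf1 in all but the fit without leukemic 1.

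With leukemic library 1 as the only leukemic library, 0 members were called against WT or against the double mutant (1.64% and 1.19% of all genes), all 20 directions were kept, and the spread of the lone library was taken from the other groups. In that fit the log2 change from WT was 2.43 for Abcg4, 2.08 for Abcb4, 1.63 for Abcb10, -1.52 for Abcg1 and -1.16 for Abca1. Against the double mutant, a fit of those 2 groups alone kept 1 of 11 members and called 5.32% of all genes. Counts when 1 library was left out ran from 4 without leukemic 2 (8.51% of all genes) to 17 without leukemic 1 (38.0%), with 5 without leukemic 3 (13.0%), 6 without double mutant 3 (11.3%) and 7 without double mutant 1 (16.5%) or 2 (12.1%). Under scaling by total counts the median of all genes was -0.26 in leukemic minus WT and -0.34 in leukemic minus double mutant and changes under that scaling are read against these values; no called member changed direction.

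**Figure D4:**
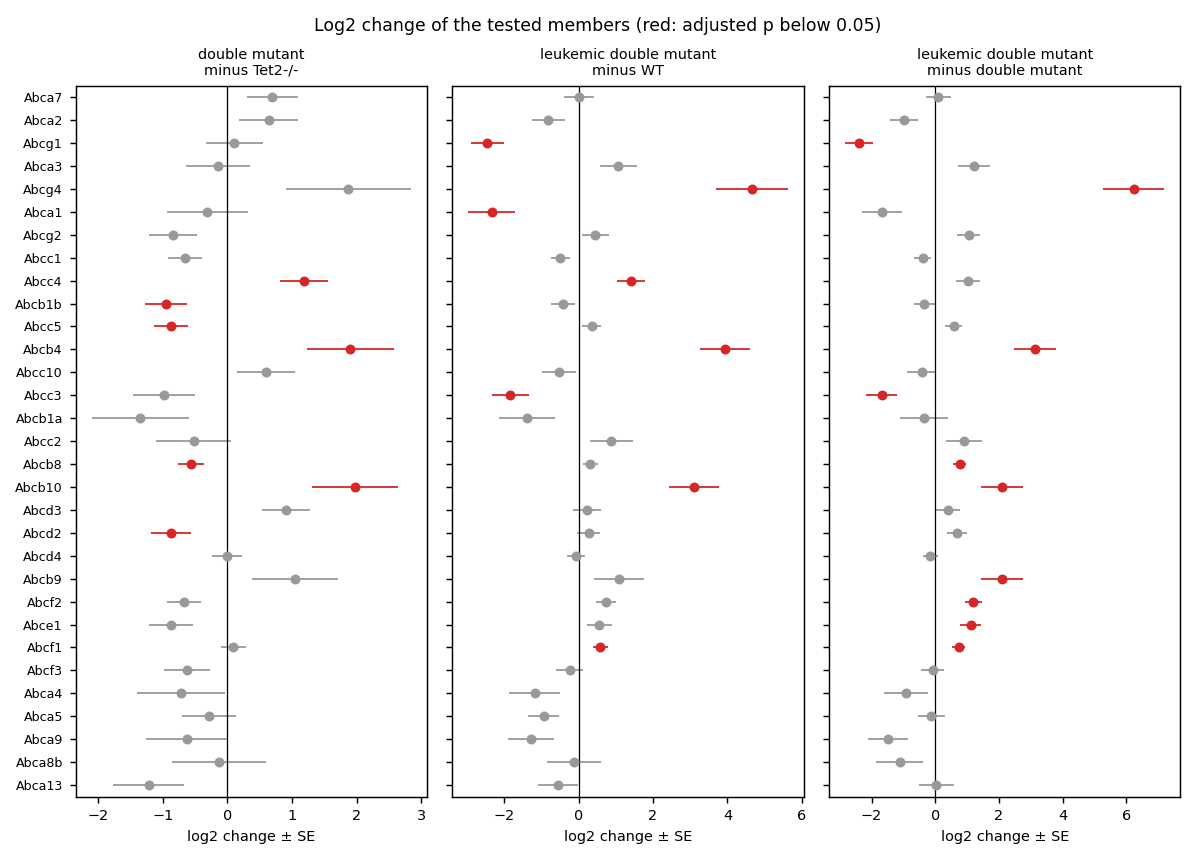
Log2 change ± SE of 31 of the 33 tested members, ordered by role, in 3 comparisons; red points have an adjusted p below 0.05. The 2 leukemic panels share most red points, with Abcg4 farthest to the right and Abcg1 farthest to the left, and in the first panel changes stay between -1.35 and 1.97.

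Between the double mutant and Tet2-/-, 7 of 33 members (21.2%) were called, against 28.7% of all tested genes: 3 higher (9.09%, background 20.1%) and 4 lower (12.1%, background 8.57%). The higher ones were Abcb10 at 1.97 ± 0.67, Abcb4 at 1.90 ± 0.67 and Abcc4 at 1.19 ± 0.37, and for all 3 the groups did not overlap (9.09%, background 26%). In the other direction, 11 members lay below Tet2-/- without overlap (33.3%, background 27.5%). The lower ones were the drug exporters Abcb1b and Abcc5, the mitochondrial Abcb8 and the peroxisomal Abcd2.

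Abcb1b (chr5:8798147-8866315), the more abundant of the 2 mouse P-glycoprotein copies here, was highest in Tet2-/-. Abcb1b read 49.7, 57.5 and 62.0 CPM (WT libraries 1, 2 and 3), 112, 94.5 and 103 (Tet2-/-), 37.6, 84.3 and 66.2 (Nras), 58.5, 56.7 and 45.6 (double mutant) and 64.7, 26.5 and 43.1 (leukemic). The 3 Tet2-/- values were above the other 12 libraries. It fell by 0.95 ± 0.32 in the double mutant relative to Tet2-/- (limma adjusted p = 0.0415), and Tet2-/- minus WT was 0.87 ± 0.32, not called (adjusted p = 0.142).

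Abcc5 (chr16:20331303-20426394) exports cyclic nucleotides, and Abcc1 (chr16:14361558-14475737) exports glutathione conjugates and leukotriene C4. Abcc5 read 50, 47.2 and 58.8 CPM (WT libraries 1, 2 and 3), 92.8, 63.5 and 89.5 (Tet2-/-), 36.3, 47.2 and 62.0 (Nras), 49.2, 48.2 and 36.7 (double mutant) and 53.0, 88.2 and 61.6 (leukemic). Abcc1 read 175, 165 and 204 CPM (WT libraries 1, 2 and 3), 275, 249 and 279 (Tet2-/-), 109.8, 247 and 145 (Nras), 197, 178 and 139 (double mutant) and 150.2, 113 and 126 (leukemic). For both genes every Tet2-/- value was above every WT and double mutant value. Abcc5 fell by 0.87 ± 0.26 in double mutant minus Tet2-/- (limma adjusted p = 0.0263); Abcc1 was called only by the F test (adjusted p = 0.0388) and stood at -0.66 ± 0.26 in that comparison (adjusted p = 0.0692).

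Abcd2 (chr15:91145871-91191799), a peroxisomal transporter of long-chain fatty acids, was called at the edge of the threshold. Abcd2 read 21.9, 21.4 and 25.6 CPM (WT libraries 1, 2 and 3), 26.6, 23.7 and 48.3 (Tet2-/-), 16.7, 34.7 and 26.5 (Nras), 17.7, 18.7 and 15.2 (double mutant) and 34.2, 25.6 and 24.3 (leukemic). The double mutant values lay below all Tet2-/- and WT values, and Tet2-/- library 3 was the highest of the 15. It fell by 0.86 ± 0.31 in double mutant minus Tet2-/- (limma adjusted p = 0.0497), and Abcb8 fell by 0.56 ± 0.20 (adjusted p = 0.0487). Without Tet2-/- library 1 or 3, or double mutant library 2 or 3, 0 members were called here (9.03%, 11.5%, 11.9% and 10.3% of all genes), and without double mutant library 1 there were 4 (25.01%). Median centring gave 13 calls, against 43.5% of all genes, with a median of all genes of -0.46. Each of the 7 calls was lost in 1 to 4 of 10 other settings. In this comparison the deviations of libraries of the same number correlated weakly in 3 of 3 pairs (0.106 to 0.137), too weakly to establish pairing. With the replicate number as a block, 5 members were called: Abcb10, Abcb4, Abcc4 and Abcc5 kept their calls and Abcd3 was added. Abcb1b, Abcb8 and Abcd2 missed the threshold (limma adjusted p = 0.0557, 0.0631 and 0.0615). The erythroid markers summed to 50.4 to 93.0 CPM in the double mutant and 30.3 to 59.1 in Tet2-/-, so that the groups overlapped. Of the 8 markers 2 were called higher here (background 20.1%) and 0 lower. Double mutant library 3 had the lowest marker sum of its group, while its Abcb10 and Abcb4, at 47.1 and 14.8 CPM, exceeded every Tet2-/- value. The part of the markers in the result was not tested.

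**Figure D5:**
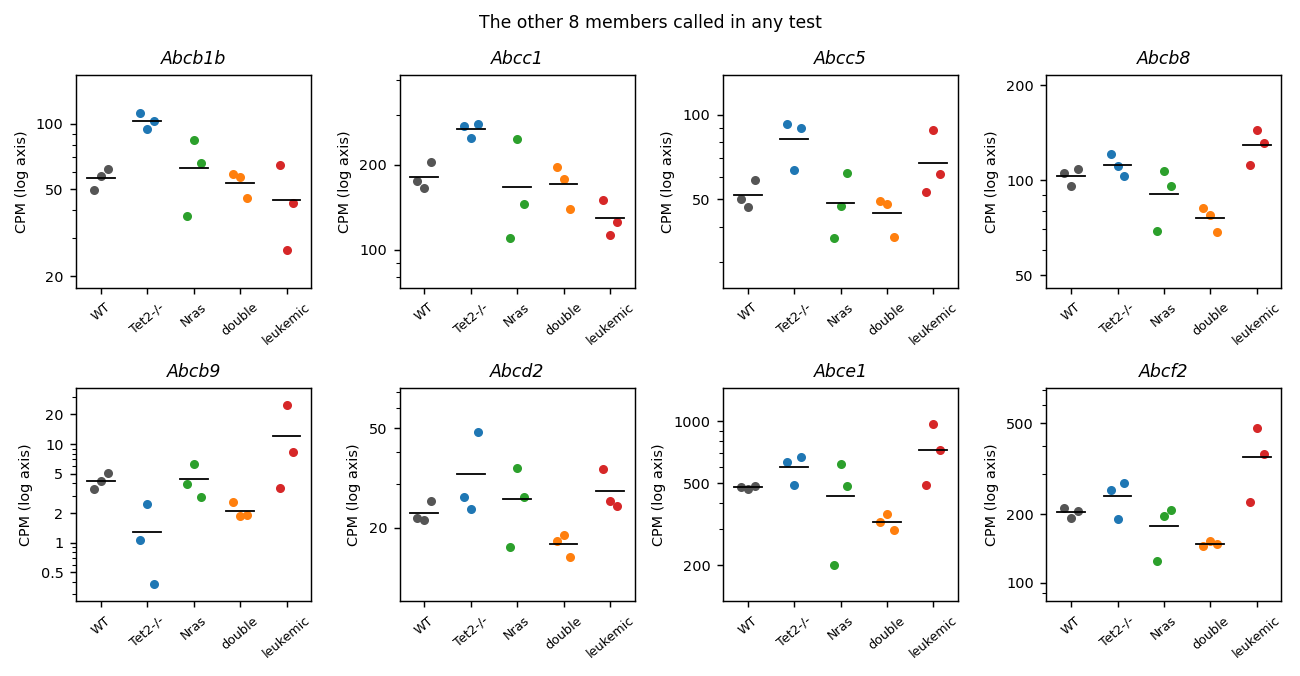
CPM per library on log axes for the other 8 members called in any test; each point is a library and each bar the mean of 3. In Abcb1b, Abcc1, Abcc5 and Abcd2 the Tet2-/- mean is the highest of the 5 groups, and in Abcb8, Abcb9, Abce1 and Abcf2 the leukemic mean is the highest.

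Against WT, none of the 3 non-leukemic mutant groups had a called member. In Tet2-/- minus WT limma called 0 of 33 (background 0.23%), with 7 members at an unadjusted p below 0.05 (21.2%, background 23.7%): Abcb1b, Abcc1 and Abcc5 higher and Abcb9, Abcc4, Abcd3 and Abcg4 lower. The groups did not overlap for 6 members that were higher (18.2%, background 21.9%) and 4 that were lower (12.1%, background 12.9%). Without Tet2-/- library 2, 3 members were called, Abcb9, Abcd3 and Abca7 (9.09%), against 16.0% of all genes in that fit. Tet2-/- library 2 lay nearer to WT than libraries 1 and 3 for Abca7, Abcd3 and Abcc4.

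In Nras(G12D) minus WT 0 members were called by limma (background 0%), with 1 at an unadjusted p below 0.05, Abca5 (3.03%, background 4.14%). The count was also 0 without Nras(G12D) library 2. In double mutant minus WT 0 were called (background 0.682%), with 1 at an unadjusted p below 0.05, Abcb8 at -0.45 ± 0.20 (3.03%, background 15.2%). There, 10 members lay below WT without overlap (30.3%, background 20.8%) and 0 above (background 16.6%); the 10 include Abce1, Abcf1, Abcf2, Abcb8 and Abcg2. In double mutant minus Nras(G12D) 0 were called and 0 had an unadjusted p below 0.05 (backgrounds 0.079% and 7.41%).

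The interaction, which asks whether the double mutant differs from the sum of both single mutants on the log2 scale, called 0 members (background 0%). At an unadjusted p below 0.05 there were 3, Abcb1b, Abcd2 and Abcd3 (9.09%, background 21%). Voom with sample quality weights, also from limma, called more genes of every kind. It called 14 members in Tet2-/- minus WT (background 49.8%), 0 in Nras(G12D) minus WT (0%), 5 in double mutant minus WT (26.3%), 0 in double mutant minus Nras(G12D) (0.158%) and 9 in the interaction (42.5%). In none of these was the share of the 33 members above that of all genes. The leukemic comparisons under this setting, given below, are not covered by that statement.

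The spread between libraries of a group was described by the ratio of the highest to the lowest. The median ratio was 1.34 over the 33 members in WT, 1.42 in the double mutant, 1.84 in Tet2-/-, 2.13 in Nras(G12D) and, at the top, 2.33 in leukemic libraries. Over all tested genes the same medians were 1.30, 1.37, 1.58, 1.91 and 1.78. Leukemic libraries 1 and 2 each held the highest value for 15 members and library 3 for 3.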

How the data were processed

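RNA of sorted LSK cells was sequenced from stranded mRNA libraries, per the labels' protocols. The authors deposited 1 table of log2 values for 44827 gene symbols in 15 libraries. That they are log2 CPM, with 0.5 added to the count and 1 to the library size, was read from the values, of which 100% returned whole counts within 1e-06. The tools named are limma 3.28.21, edgeR 3.14.0, STAR 2.4.0f1 and bcl2fastq, and the builds NCBIM37 and mm10, per the submitters' processing notes. Which counter, annotation and strand setting served is not given in the sources used here. Reads of overlapping genes and of near copies may therefore be shared.

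CPM in the text was computed from the recovered counts and the authors' effective library size. Genes at 1 CPM or more in at least 3 libraries entered limma 3.58.1 in R 4.3.3 (lmFit, contrasts.fit, eBayes with trend), with a mean per group over all 15 libraries and 10 residual degrees of freedom. Two-sided tests were made, with Benjamini-Hochberg adjustment over 13927 genes within each of 7 pairs of groups, the interaction and the F test. The added count makes log2 changes of low genes too small. A count of 0 allows up to 3 counts, or 0.0775 to 0.127 CPM, counting error only. The fit was tested on simulated data. All libraries of a group differed from each other by more than sampling noise.

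The members, role lists, partner lists and markers were chosen with earlier results of these data known. Values in every library are given for members called in any test and for the 2 of highest mean CPM per tested role list. Of each partner list the 3 genes of smallest F test p are named. Nr1h2, Nr1h3, Dhcr7, Pex16, Uros and Nfs1, and members outside this rule, were named after their values were seen. Some genes these rules name, 2 members among them, enter the counts but are not reported here. Gene lengths and overlaps come from GENCODE M21 (GRCm38) and promoters from RefSeq (GRCm38.p6). The alternatives were scaling by total counts, quantile normalization, median centring, an added count of 0.1, no filter, a mean of 1 CPM, voom with sample quality weights, a covariate of 4 Y-linked genes, a replicate block, the compared groups alone and each library left out. Leukemic library 1 alone was added after seeing the data. The replicate numbers come from the labels, which do not say what a shared number marks. By the correlation of deviations only Tet2-/- and double mutant libraries had 3 of 3 same-number pairs over 0.1. Libraries of unlike number reached 0.468 (WT 1 with Nras(G12D) 3), so such values cannot establish pairing.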

Additional observations from a re-analysis of the deposited data

How the results depend on the processing

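The 9 counts of called members had 161 values under the alternatives, of which 123 were within 1.5 times the main count. Voom with sample quality weights raised the count to 14 in Tet2-/- minus WT, 5 in double mutant minus WT, 20 in leukemic double mutant minus WT, 20 in double mutant minus Tet2-/-, 21 between the double mutant groups, 9 in the interaction and 29 in the F test, while it called 49.8%, 26.3%, 60.5%, 63.2%, 56.7%, 42.5% and 88.8% of all genes there. A fit of the compared groups alone gave 1 in Tet2-/- minus WT, 3 in double mutant minus WT, 12 in double mutant minus Tet2-/- and 1 between the double mutant groups, against 0.409%, 4.12%, 32.9% and 5.32% of all genes. With no filter the counts were 1, 1 and 0 in Tet2-/- minus WT, double mutant minus WT and double mutant minus Tet2-/-; the 1 is Abcc12, which has at most 2 reads in any library. Double mutant minus Tet2-/- gave 13 under median centring (43.5% of all genes) and 2 with the Y-linked covariate (28.1%). With leukemic library 1 alone, an alternative chosen after seeing the data, the counts were 0 against WT, 0 against the double mutant and 4 in the F test. The cause was not tested in any of these.

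When 1 library was left out, counts ran from 0 to 3 in Tet2-/- minus WT, 5 to 14 in leukemic double mutant minus WT, 0 to 9 in double mutant minus Tet2-/- and 4 to 17 between the double mutant groups. They ran from 0 to 2 in the interaction and 8 to 21 in the F test, and were 0 throughout in the other 3. Such fits hold fewer libraries. For the 27 calls of a member in a comparison of 2 groups, 313 of 452 values kept the call, 139 lost it and 0 reversed direction.

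With the replicate number as a block the counts were 2 in Tet2-/- minus WT (Abcg4 and Abcd3), 9 in leukemic double mutant minus WT (8 kept, with Abcf1 lost and Abcf2 added), 5 in double mutant minus Tet2-/- (4 kept), 13 between the double mutant groups, 11 in the F test and 0 in the other 4. Of 30 pairs of libraries with the same number 12 had a correlation of their deviations over 0.1, with a range of -0.346 to 0.294 and a median of 0.0717, against -0.0353 for pairs of other numbers. Among the 4 non-leukemic groups this held for 6 of 6 pairs numbered 2, 3 of 6 numbered 1 and 2 of 6 numbered 3. Only Tet2-/- with the double mutant had all 3 pairs over 0.1, and 8 of 15 libraries correlated best with their own number. The pairing was used in no main test.

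With 3 libraries a group and a spread in leukemia of 2.33 times between highest and lowest for the median member, modest changes of members may be missed. Depth limits the 16 untested members and Abcg4 in Tet2-/-, where 4 to 6 reads stand behind each value.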

Other observations

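The summed CPM of the 4 soluble members was 953 to 1004 in WT, 980 to 1263 in Tet2-/-, 584 to 1084 in Nras(G12D) and 726 to 764 in double mutant libraries. The leukemic libraries read 982, 1946 and 1537, so the double mutant libraries lay below all WT libraries and leukemic libraries 2 and 3 above every other library. The sum over the 4 mitochondrial members ran from 213 to 239 CPM in WT and from 176 to 228 in double mutant libraries, and leukemic libraries 1, 2 and 3 read 283, 874 and 414. The 8 cholesterol and phospholipid exporters summed to 346 to 485 CPM in WT and to 381, 513 and 516 in the leukemic double mutant. Within that sum Abcg1, Abca1 and Abca2 had lower means in the leukemic double mutant than in WT. Abcg4, Abca3 and, slightly, Abca7 had higher means. Mean CPM of Abca3 was 56.3 in WT and 135 in the leukemic double mutant, and that of Abca2 was 89.8 and 60.2, neither called. No test was run on these sums.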
